A study of Homo sapiens with 18 samples.

Results

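CDKN1A, CDKN1B, CDKN1C, CDKN2C and CDKN2D, the CDK inhibitor genes described here, were followed through 18 RNA-seq libraries of the leukaemia line THP1 and its NRAS-engineered subclone B11. They were taken from the table by symbol, through their Ensembl IDs, and not by how they behaved. They are 5 of 60658 gene IDs, and all 5 were among the 17555 genes that reached at least 1 FPKM (fragments per kilobase of transcript after depth scaling) in at least 3 libraries and were tested. CDKN1A is ENSG00000124762, CDKN1B ENSG00000111276, CDKN1C ENSG00000129757, CDKN2C ENSG00000123080 and CDKN2D ENSG00000129355.

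Cyclin-dependent kinases (CDKs) drive the cell cycle when bound by cyclins, and CDK inhibitors are small proteins that hold them back. The CIP/KIP family (p21 from CDKN1A, p27 from CDKN1B, p57 from CDKN1C) binds assembled cyclin-CDK complexes, above all those of CDK2. The INK4 family (p18 from CDKN2C and p19 from CDKN2D, with p16 and p15 from CDKN2A and CDKN2B) binds the kinases CDK4 and CDK6, whose activity phosphorylates the RB1 protein and frees E2F transcription factors. In myeloid cells these genes are known for accompanying the exit from the cycle during maturation, and signalling through RAS is known to act on several of them.

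B11 is a single clone. Per the labels it comes from THP1 cells given a lentiviral, CRISPR-resistant and doxycycline-inducible NRAS carrying G12V, together with GFP, and then Cas9, puromycin resistance and a pair of guide RNAs placed around the start codon of the cells' own NRAS. The labels list B11 as heterozygous NRAS-G12V. The parent line THP1 is an acute myeloid leukaemia line of monocytic type. It is listed as heterozygous NRAS-G12D, and the labels name no vector in it. B11 plates were left untreated (0 ug/ml) or given doxycycline at 1 or 10 ug/ml for 5 days, and so were THP1 plates, with 3 plates in each of the 6 groups and the same medium, RPMI with fetal bovine serum, throughout. All plates of a line came from one culture, so a p-value reflects the spread among plates only. B11 against THP1 compares 1 clone with its parent line, so the engineered NRAS and other properties of that clone cannot be told apart. THP1 given doxycycline measures the drug in cells for which no inducible gene is listed.

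NRAS, the targeted gene, averaged 20.9 ± 1.09, 23.8 ± 0.579 and 28.0 ± 0.219 FPKM in B11 at 0, 1 and 10 ug/ml, and 23.3 ± 0.348, 23.4 ± 1.97 and 24.2 ± 0.505 FPKM in THP1 at the same doses (SD, n = 3). It rose in B11 at 10 against 0 ug/ml by 0.40 on the log2(FPKM + 1) scale (SE 0.07, limma adjusted p = 0.000276). At 1 against 0 ug/ml in B11 the NRAS difference was 0.18 (SE 0.07, adjusted p = 0.0607). Between untreated B11 and untreated THP1 the NRAS difference was -0.15 (SE 0.07, limma adjusted p = 0.0994), with all 3 B11 libraries below those of THP1. B11 against THP1 differed in NRAS by 0.03 at 1 ug/ml (adjusted p = 0.826) and by 0.20 at 10 ug/ml (adjusted p = 0.0419). The table has no separate entry for the introduced NRAS, so its RNA and that of the locus cannot be told apart. The libraries held an estimated 11.31 to 16.22 M fragments each. At least 9 of 10 myeloid markers reached 1 FPKM in every library, the exception being CD14 in B11. Their summed level was 3406 to 4335 FPKM in untreated B11, 1215 to 1294 at 1 ug/ml, 1016 to 1114 at 10 ug/ml and 1449 to 1888 in THP1. These sums moved with the dose in B11, and their part in the results on the CDK inhibitor genes was not tested. LYZ made up most of the sum in untreated B11, with medians of 3009, 463 and 282 FPKM at 0, 1 and 10 ug/ml. Single markers did not all move alike. Medians of CSF1R in B11 at these doses were 178, 42.4 and 13.6 FPKM. Those of ITGAM were 3.26, 28.4 and 9.93 FPKM, and those of SPI1 288, 246 and 282 FPKM. Summed markers of other cell types reached at most 7.83 FPKM for B cells, 5.19 for T cells, 4.49 for fibroblasts, 0.707 for epithelium and 0.546 for erythroid cells. Plates B and C of the 1 ug/ml B11 group stood apart: an unnamed gene ID held 76850 and 42501 FPKM in them, 6.51% and 3.76% of all signal, and at most 1.95e-37 FPKM elsewhere. Changes of the CDK inhibitor genes that rest on this group and passed at an adjusted p under 0.05 are given with and without both. In bulk RNA, fewer cells of one state and less RNA per cell cannot be told apart.

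The promoters of CDKN1A, CDKN2D and CDKN1B are shown because these genes, in that order, ran from the widest to the narrowest spread of group means among the members with a single start in RefSeq. RefSeq's table for GRCh38.p14 held 4 of the 5 members, all but CDKN1C. Each sequence is the 250 bases before the start, 5′ to 3′ on the gene's strand, with GC boxes (GGGCGG or its reverse complement CCGCCC, the motif of SP1) in capitals. They lie at chr6:36678464-36678713 on the plus strand for CDKN1A, at chr19:10568980-10569229 on the minus strand for CDKN2D and at chr12:12717118-12717367 on the plus strand for CDKN1B.
CDKN1A: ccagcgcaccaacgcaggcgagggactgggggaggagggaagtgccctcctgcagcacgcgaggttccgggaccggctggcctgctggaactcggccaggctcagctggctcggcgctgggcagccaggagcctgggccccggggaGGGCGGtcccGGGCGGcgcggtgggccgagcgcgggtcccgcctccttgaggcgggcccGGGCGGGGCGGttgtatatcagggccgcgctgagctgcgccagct
CDKN2D: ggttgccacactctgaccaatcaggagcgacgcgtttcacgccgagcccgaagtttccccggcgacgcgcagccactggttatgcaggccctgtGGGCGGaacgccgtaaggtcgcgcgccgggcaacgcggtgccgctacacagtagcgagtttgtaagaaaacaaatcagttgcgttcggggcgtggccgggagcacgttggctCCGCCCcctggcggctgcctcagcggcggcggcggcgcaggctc
CDKN1B: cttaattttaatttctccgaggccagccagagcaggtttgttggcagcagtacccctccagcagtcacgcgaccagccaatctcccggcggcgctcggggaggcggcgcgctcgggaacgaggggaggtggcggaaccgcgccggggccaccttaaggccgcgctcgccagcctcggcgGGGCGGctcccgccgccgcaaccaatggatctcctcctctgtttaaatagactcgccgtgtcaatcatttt
CDKN1A held 4 GC boxes, the last 2 sharing a base, CDKN2D 2 and CDKN1B 1. Of 35116 promoter windows of this length, 42.64% held at least 1, counting both strands. CCAAT, also counted as ATTGG, occurred 2 times in CDKN1B, 1 time in CDKN2D and not in CDKN1A, against 32.01% of all windows with a match. G and C made up 76.4% of the CDKN1A window, 67.6% of CDKN2D and 64.4% of CDKN1B, against a median of 58% over all windows. CDKN2C had 3 listed starts, with 0, 5 and 1 GC boxes. A match is a description of the letters and not a bound site.

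CDKN2C was the most abundant of the 5 transcripts in all 6 groups, and CDKN1A made up a variable share. On the FPKM scale, which is per transcript length, the 5 genes summed to 174 ± 3.05, 247 ± 5.75 and 178 ± 13.2 FPKM in B11 at 0, 1 and 10 ug/ml, and to 295 ± 16.2, 285 ± 3.05 and 248 ± 3.50 FPKM in THP1 at the same doses (SD, n = 3). CDKN2C held 61.4% to 74.8% of the sum in B11 groups and 77.1% to 81.1% in THP1 groups. CDKN1A held 6.01%, 23.2% and 16.5% in B11 at 0, 1 and 10 ug/ml, and 10.8%, 9.88% and 6.80% in THP1. CDKN1C was the least abundant member in all 18 libraries.

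**Figure D1:**
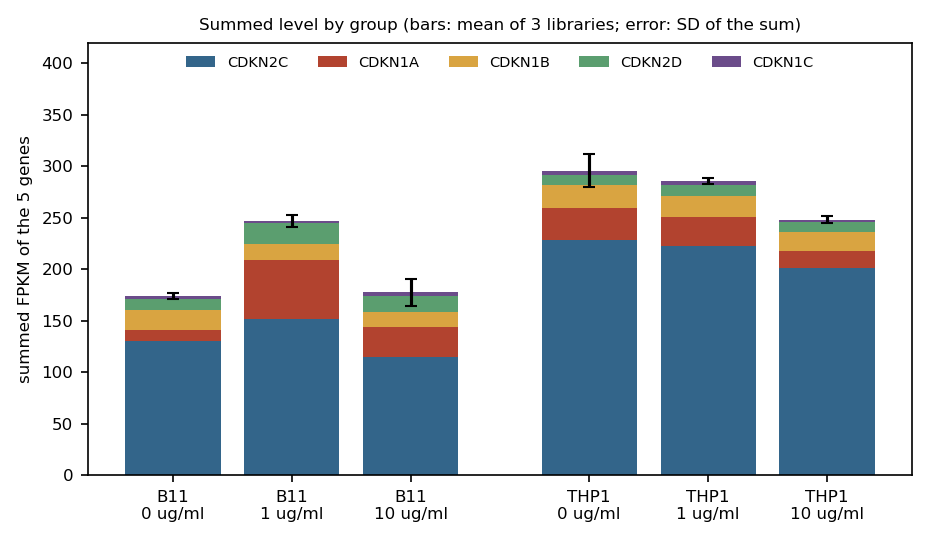
Mean FPKM of the 5 CDK inhibitor genes stacked by group, B11 at the left and THP1 at the right with the dose below each bar, and the SD of the sum over 3 libraries as the error. The bar of B11 at 1 ug/ml reaches 247 FPKM, against 174 FPKM untreated, and CDKN2C makes up most of each bar.

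CDKN1A encodes p21, a CIP/KIP inhibitor that also blocks the replication clamp PCNA. Its gene lies at 36676460 to 36687339 on chromosome 6 (GRCh38, plus strand). CDKN1A stood at 9.58, 9.44 and 12.3 FPKM in B11 at 0 ug/ml, at 54.0, 59.6 and 58.1 FPKM at 1 ug/ml, and at 31.5, 32.6 and 24.4 FPKM at 10 ug/ml. THP1 had 32.4, 32.9 and 29.9 FPKM at 0 ug/ml, 27.2, 27.6 and 29.7 FPKM at 1 ug/ml and 18.01, 16.6 and 15.96 FPKM at 10 ug/ml. Doxycycline went with more CDKN1A in B11, most at the lower dose, and with less in THP1, at the higher dose. No library of treated B11 overlapped an untreated one.

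In B11, CDKN1A rose by 2.36 on the log2 scale at 1 against 0 ug/ml (SE 0.11, limma adjusted p = 5.11e-10), with 57.3 ± 2.90 FPKM at 1 ug/ml and 10.4 ± 1.61 FPKM untreated (SD, n = 3). At 10 against 0 ug/ml it rose by 1.41 (SE 0.11, adjusted p = 1.14e-07), with 29.5 ± 4.46 FPKM at 10 ug/ml. Between the doses it was lower at 10 than at 1 ug/ml, by -0.94 (SE 0.11, adjusted p = 7.53e-05). Without plates B and C of the 1 ug/ml B11 group the changes were 2.28 for 1 against 0 (adjusted p = 1.18e-06) and -0.86 for 10 against 1 ug/ml (adjusted p = 0.0161).

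In THP1, CDKN1A fell at 10 against 0 ug/ml by 0.87 on the log2 scale (SE 0.11, limma adjusted p = 0.0014), with 16.9 ± 1.05 FPKM at 10 ug/ml and 31.7 ± 1.65 FPKM untreated (SD, n = 3). At 1 against 0 ug/ml the difference was -0.17 (adjusted p = 0.964), with 28.2 ± 1.33 FPKM at 1 ug/ml. At 10 against 1 ug/ml it was -0.71 (SE 0.11, adjusted p = 0.0229), a call lost under 8 of 30 other settings, where the adjusted p reached 0.115. These included leaving out plate B or C of THP1 at 10 ug/ml or any one plate of THP1 at 1 ug/ml, with changes of -0.73 to -0.67.

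Between the lines, the direction depended on the dose. CDKN1A was lower in untreated B11 than in untreated THP1, by -1.53 (SE 0.11, limma adjusted p = 4.17e-08). It was higher in B11 than in THP1 at 1 ug/ml, by 1.00 (SE 0.11, adjusted p = 1.07e-05), and at 10 ug/ml, by 0.76 (SE 0.11, adjusted p = 0.00011). The response of B11 exceeded that of THP1 by 2.29 at 10 against 0 ug/ml (SE 0.16, adjusted p = 6.63e-08) and by 2.52 at 1 against 0 ug/ml (SE 0.16, adjusted p = 2.89e-08). Without plates B and C of the 1 ug/ml B11 group the difference from THP1 at 1 ug/ml was 0.92 (adjusted p = 0.00328) and the difference of response at 1 against 0 ug/ml was 2.44 (adjusted p = 6.41e-06). In order of mean, B11 at 1 ug/ml stood highest and untreated B11 lowest, each apart from its neighbour. THP1 at 0 ug/ml, B11 at 10 ug/ml and THP1 at 1 ug/ml overlapped as neighbours in between, and THP1 at 10 ug/ml stood below these.

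**Figure D2:**
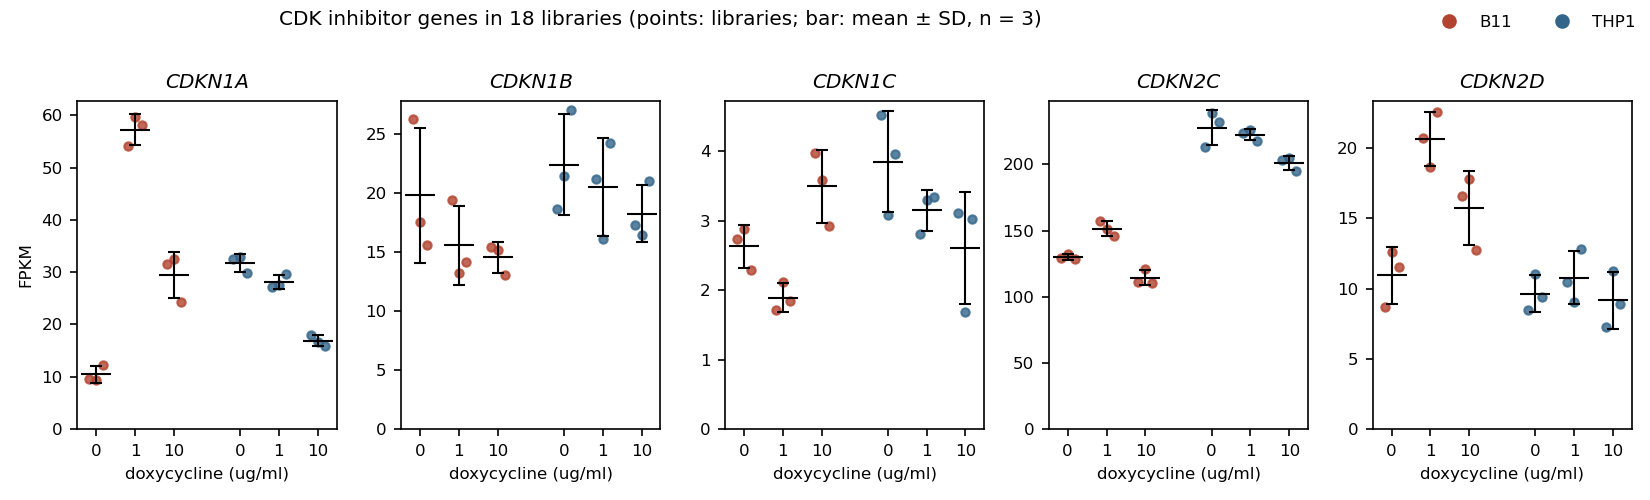
FPKM of each CDK inhibitor gene in each library (points) against the doxycycline dose in ug/ml, with the mean and SD of 3 libraries, B11 in red and THP1 in blue, each panel on its own linear axis from 0. CDKN1A spans 9.44 to 59.6 FPKM over the libraries and CDKN1B 13.04 to 27.1 FPKM.

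CDKN1B encodes p27, which binds cyclin E-CDK2 and is known to be set largely by degradation of the protein. It lies at 12715058 to 12722371 on chromosome 12 (plus strand). B11 had 26.3, 17.6 and 15.6 FPKM at 0 ug/ml, 19.4, 13.2 and 14.2 FPKM at 1 ug/ml and 15.4, 15.2 and 13.04 FPKM at 10 ug/ml. THP1 had 18.7, 21.4 and 27.1 FPKM at 0 ug/ml, 21.2, 16.1 and 24.3 FPKM at 1 ug/ml and 17.3, 16.5 and 21.04 FPKM at 10 ug/ml. The spread between replicates, with an SD of up to 28.8% of the mean, covered most of the differences between groups, and all neighbours in the order of means overlapped.

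CDKN1B passed the test in none of the 12 comparisons. Its means were 19.8 ± 5.70, 15.6 ± 3.34 and 14.5 ± 1.30 FPKM in B11 at 0, 1 and 10 ug/ml, and 22.4 ± 4.28, 20.5 ± 4.13 and 18.3 ± 2.44 FPKM in THP1 (SD, n = 3). In B11 at 10 against 0 ug/ml the 3 treated libraries lay below the 3 untreated ones, at -0.39 (SE 0.20, limma adjusted p = 0.143), and at 1 against 0 ug/ml the difference was -0.31 (SE 0.20, adjusted p = 0.261). Both moved with the libraries used: without plate A of untreated B11, at 26.3 FPKM, they were -0.18 (adjusted p = 0.521) and -0.10 (adjusted p = 0.746), and without plates B and C of the 1 ug/ml B11 group the difference at 1 against 0 ug/ml was 0.00599 (adjusted p = 1). In THP1 at 10 against 0 ug/ml it was -0.27 (SE 0.20, adjusted p = 0.713). At 10 ug/ml the B11 libraries lay below those of THP1, at -0.31 (SE 0.20, adjusted p = 0.284). The transcript AC008115.3, annotated as sense intronic, lies inside CDKN1B on the same strand and had 0.692 to 4.29 FPKM. Whether it shares reads with CDKN1B was not tested.

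CDKN1C encodes p57, expressed from the maternal copy in most tissues, and lies at 2883213 to 2885773 on chromosome 11 (minus strand). B11 had 2.74, 2.88 and 2.29 FPKM at 0 ug/ml, 1.71, 2.12 and 1.85 FPKM at 1 ug/ml and 3.97, 3.60 and 2.93 FPKM at 10 ug/ml. THP1 had 4.52, 3.08 and 3.97 FPKM at 0 ug/ml, 2.82, 3.30 and 3.34 FPKM at 1 ug/ml and 3.12, 1.68 and 3.03 FPKM at 10 ug/ml. Within B11 the 3 doses did not overlap, with the lowest levels at 1 ug/ml and the highest at 10 ug/ml. Over all 6 groups, each overlapped its neighbours in the order of means. At an estimated 49.2 to 156 fragments per library, counting alone gave an error of 8.0% to 14% of a value.

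CDKN1C was higher in B11 at 10 than at 1 ug/ml, by 0.63 on the log2 scale (SE 0.18, limma adjusted p = 0.03), with 3.50 ± 0.526 FPKM at 10 ug/ml and 1.89 ± 0.210 FPKM at 1 ug/ml (SD, n = 3). Against untreated B11, at 2.64 ± 0.309 FPKM, the difference was 0.30 at 10 ug/ml (adjusted p = 0.188) and -0.33 at 1 ug/ml (adjusted p = 0.169), or -0.42 without plates B and C of the 1 ug/ml B11 group (adjusted p = 0.299). In THP1 it was -0.44 at 10 against 0 ug/ml (SE 0.18, adjusted p = 0.373). B11 was lower than THP1 at 1 ug/ml, by -0.52 (SE 0.18, adjusted p = 0.0381), while the difference was -0.41 untreated (adjusted p = 0.0717) and 0.34 at 10 ug/ml (adjusted p = 0.168). The responses to 10 against 0 ug/ml differed between the lines by 0.75 (SE 0.25, adjusted p = 0.0356). Each of these 3 calls was lost under other settings, in 8, 9 and 10 of 29, and each was lost without plates B and C of the 1 ug/ml B11 group (0.73, adjusted p = 0.177, for B11 at 10 against 1 ug/ml, and -0.61, adjusted p = 0.15, for B11 against THP1 at 1 ug/ml). Leaving out 1 plate ended the first call for plates A and B of B11 at 10 ug/ml and each plate of B11 at 1 ug/ml (0.56 to 0.69). It ended the second for each plate of B11 at 1 ug/ml and plates B and C of THP1 at 1 ug/ml (-0.58 to -0.48). It ended the third for plates A and C of untreated B11, A and B of B11 at 10 ug/ml, A and C of untreated THP1 and B of THP1 at 10 ug/ml (0.55 to 0.77). The difference between untreated lines passed the test without plate B of untreated THP1 (-0.53) or plate B of THP1 at 10 ug/ml (-0.41), and with TPM scaling (-0.50).

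CDKN2C encodes p18, an inhibitor of CDK4 and CDK6 known for restraining the growth of blood cells in the mouse, and lies at 50960745 to 50974633 on chromosome 1 (plus strand). B11 had 129, 132 and 129 FPKM at 0 ug/ml, 158, 151 and 146 FPKM at 1 ug/ml and 111, 121 and 111 FPKM at 10 ug/ml. THP1 had 213, 239 and 232 FPKM at 0 ug/ml, 224, 226 and 218 FPKM at 1 ug/ml and 203, 205 and 195 FPKM at 10 ug/ml. No B11 library reached the lowest THP1 library, and the 3 doses of B11 did not overlap each other. From high to low the means ran THP1 at 0, 1 and 10 ug/ml, then B11 at 1, 0 and 10 ug/ml, and of these neighbours THP1 at 0 and 1 ug/ml overlapped.

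CDKN2C was lower in B11 than in THP1 at every dose, by -0.80 untreated (SE 0.05, limma adjusted p = 1.24e-08), by -0.55 at 1 ug/ml (SE 0.05, adjusted p = 2.3e-06) and by -0.81 at 10 ug/ml (SE 0.05, adjusted p = 3.69e-08). The means untreated were 130 ± 2.02 FPKM in B11 and 228 ± 13.4 FPKM in THP1 (SD, n = 3). Within B11 it rose by 0.22 at 1 against 0 ug/ml (SE 0.05, adjusted p = 0.00472) and was lower at 10 than at 1 ug/ml, by -0.40 (SE 0.05, adjusted p = 0.000164). Without plates B and C of the 1 ug/ml B11 group these 2 changes were 0.27 (adjusted p = 0.0226) and -0.46 (adjusted p = 0.00696), and the difference from THP1 at 1 ug/ml was -0.50 (adjusted p = 0.00105).

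At 10 against 0 ug/ml CDKN2C fell in B11 by 0.19 on the log2 scale (SE 0.05, limma adjusted p = 0.0108), with 114 ± 5.69 FPKM at 10 ug/ml. That call was lost when values were scaled to TPM (-0.11, adjusted p = 0.143) and in a fit of the compared groups alone (adjusted p = 0.0568). THP1 at 10 against 0 ug/ml had a difference of the same size, -0.18 (SE 0.05, adjusted p = 0.172), with its 3 treated libraries below the 3 untreated ones. The responses of the lines to 10 against 0 ug/ml differed by -0.01 (SE 0.08, adjusted p = 0.952), and to 1 against 0 ug/ml by 0.25 (SE 0.08, adjusted p = 0.0238), or 0.31 without plates B and C of the 1 ug/ml B11 group (adjusted p = 0.0437). That last difference missed the threshold under 5 of 30 other settings, where its adjusted p reached 0.0826, among them fits without plate A of B11 at 1 ug/ml, plate B or C of untreated THP1 or plate C of THP1 at 1 ug/ml (0.22 to 0.24).

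CDKN2D encodes p19, an INK4 inhibitor whose level is known to change through the cell cycle, and lies at 10566462 to 10569059 on chromosome 19 (minus strand). B11 had 8.66, 12.6 and 11.5 FPKM at 0 ug/ml, 20.7, 18.7 and 22.6 FPKM at 1 ug/ml and 16.6, 17.8 and 12.8 FPKM at 10 ug/ml. THP1 had 8.46, 11.04 and 9.42 FPKM at 0 ug/ml, 10.5, 9.05 and 12.8 FPKM at 1 ug/ml and 7.27, 11.3 and 8.93 FPKM at 10 ug/ml. Untreated B11 overlapped every THP1 group, and B11 at 1 ug/ml stood above all other groups.

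CDKN2D rose in B11 by 0.87 on the log2 scale at 1 against 0 ug/ml (SE 0.18, limma adjusted p = 0.0014), with 20.6 ± 1.94 FPKM at 1 ug/ml and 10.9 ± 2.05 FPKM untreated (SD, n = 3). At 10 against 0 ug/ml it rose by 0.49 (SE 0.18, adjusted p = 0.04), with 15.7 ± 2.65 FPKM at 10 ug/ml, a call lost under 7 of 30 other settings (adjusted p up to 0.173), among them the fit without plates B and C of the 1 ug/ml B11 group and those without plate A or C of untreated B11 or plate A or B of B11 at 10 ug/ml (0.34 to 0.53). At 10 against 1 ug/ml the difference was -0.38 (adjusted p = 0.2), or -0.39 without plates B and C of the 1 ug/ml group (adjusted p = 0.526). B11 was higher than THP1 at 1 ug/ml, by 0.89 (SE 0.18, adjusted p = 0.0017), and at 10 ug/ml, by 0.73 (SE 0.18, adjusted p = 0.00606), and the difference untreated was 0.16 (adjusted p = 0.504).

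THP1 averaged 9.64 ± 1.31, 10.8 ± 1.89 and 9.16 ± 2.01 FPKM of CDKN2D at 0, 1 and 10 ug/ml (SD, n = 3). In THP1 the CDKN2D differences were -0.08 at 10 against 0 ug/ml (limma adjusted p = 0.941) and 0.14 at 1 against 0 ug/ml (adjusted p = 0.984). The responses to 1 against 0 ug/ml differed between the lines by 0.73 (SE 0.26, adjusted p = 0.0484). This was lost under 17 of 30 other settings, with an adjusted p of up to 0.156. Single plates that ended it were A and C of untreated B11, all 3 of B11 at 1 ug/ml, A and B of B11 at 10 ug/ml, B and C of untreated THP1, A and B of THP1 at 1 ug/ml and C of THP1 at 10 ug/ml (0.58 to 0.80). The responses to 10 against 0 ug/ml differed by 0.57 (SE 0.26, adjusted p = 0.112), and by 0.71, past the threshold, without plate B of THP1 at 10 ug/ml. Without plates B and C of the 1 ug/ml B11 group, CDKN2D at 1 against 0 ug/ml in B11 rose by 0.88 (adjusted p = 0.0323) and was 0.89 above THP1 at 1 ug/ml (adjusted p = 0.0412), and the difference of response at 1 against 0 ug/ml was 0.74 (adjusted p = 0.156).

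Counted together in B11, 3 of the 5 genes were called at 10 against 0 ug/ml (CDKN1A and CDKN2D higher, CDKN2C lower), where 42.8% of all tested genes were called, 21.6% higher and 21.3% lower. The same 3 were called at 1 against 0 ug/ml, all higher, against 37.1% of all genes (19.8% higher and 17.3% lower), and the 2 comparisons share the untreated libraries. At 10 against 1 ug/ml, CDKN1A and CDKN2C were lower and CDKN1C higher, 3 of 5 against 12.8%. In THP1, CDKN1A alone was called at 10 against 0 ug/ml, where 1.02% of genes were, and at 10 against 1 ug/ml, where 0.296% were. At 1 against 0 ug/ml in THP1, limma called 0 of the 5, and 0 had an unadjusted p under 0.05, with 0.0114% of all genes called. Counts over 5 genes are read against these shares, and none is taken as particular to the CDK inhibitors.

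Between the lines, 2 of 5 were called in untreated cells, CDKN1A and CDKN2C, both lower in B11, where 47.1% of all genes were called, 23.5% higher and 23.6% lower. At 1 ug/ml 4 of 5 were called, CDKN1A and CDKN2D higher and CDKN1C and CDKN2C lower in B11, against 29.8% of genes. At 10 ug/ml 3 of 5 were called, CDKN1A and CDKN2D higher and CDKN2C lower, against 32.4%. The response to doxycycline differed between the lines for 2 of 5 at 10 against 0 ug/ml (CDKN1A and CDKN1C), where 29.8% of genes did, and for 3 of 5 at 1 against 0 ug/ml (CDKN1A, CDKN2C and CDKN2D), where 25.9% did. For 10 against 1 ug/ml limma called 0 of 5, with 2 of 5 at an unadjusted p under 0.05 and 4.64% of all genes called. Fitted without plates B and C of the 1 ug/ml B11 group, fewer of all genes were called in every comparison. In that fit CDKN1C lost each of its calls. CDKN2D lost those in B11 at 10 against 0 ug/ml and for the response at 1 against 0 ug/ml. CDKN1A lost its call in THP1 at 10 against 1 ug/ml. The other calls on the 5 genes stayed.

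**Figure D3:**
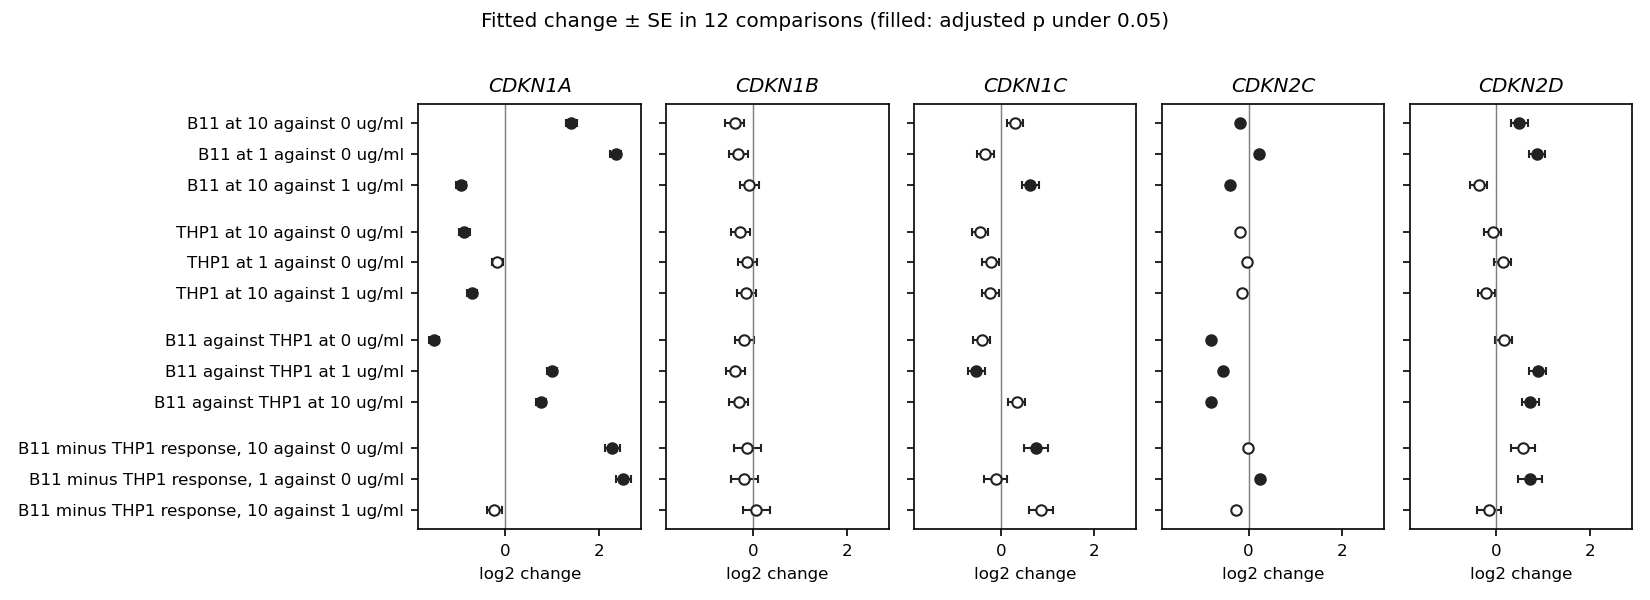
Fitted change in log2(FPKM + 1) with its SE for each CDK inhibitor gene (panels) in 12 comparisons (rows), the first-named condition minus the second, with filled points at an adjusted p under 0.05. CDKN1A is filled in 10 of 12 rows and CDKN1B in none.

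The kinases and cyclins that these inhibitors bind mostly rose in B11. Of 12 listed, 11 were tested, and 9 rose and 0 fell at 10 against 0 ug/ml, with a median change of 1.39 against -0.02 over all genes, of which 21.6% rose and 21.3% fell. CCNA2, the S-phase cyclin A, averaged 32.6 FPKM at 10 ug/ml and 3.39 FPKM untreated, a rise of 2.94 (SE 0.07, limma adjusted p = 3.83e-13). CDK1, the mitotic kinase, averaged 74.8 and 9.83 FPKM in these groups (2.81, SE 0.10, adjusted p = 1.67e-11), and its partner CCNB1 rose by 2.47 (SE 0.09, adjusted p = 4.2e-11). CCND1, a D-type cyclin that activates CDK4, averaged 17.6 FPKM at 10 ug/ml and 0.279 FPKM untreated (3.88, SE 0.26, adjusted p = 1.75e-08). The most abundant D-type cyclin listed, CCND3, averaged 203 FPKM at 10 ug/ml and 161 FPKM untreated. At 1 against 0 ug/ml, where 19.8% of all genes rose and 17.3% fell, 9 rose and 1 fell, with a median of 1.63. THP1 at 10 against 0 ug/ml had 0 of 11 called by limma, where 1.02% of all genes were. An unadjusted p under 0.05 was found for 3 of the 11, and for 1835 of all 17555 genes.

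Untreated B11 had lower levels of 10 of these 11 genes than untreated THP1, with a median of -2.01 against 0.02 over all genes, of which 23.6% were lower. CDK4, the kinase bound by p18 and p19, averaged 110 FPKM in untreated B11 and 318 FPKM in untreated THP1 (-1.53, SE 0.08, limma adjusted p = 1.08e-09). CCNA2 differed by -3.07 (SE 0.07, adjusted p = 3.76e-13). CDKN3, a phosphatase that acts on CDK1 and CDK2 and is no INK4 or CIP/KIP inhibitor, went the same way, with 21.2 FPKM in untreated B11 and 115 FPKM in untreated THP1 (-2.35, SE 0.32, adjusted p = 2.52e-05), and it rose in B11 at 10 against 0 ug/ml by 1.84 (SE 0.32, adjusted p = 0.000294).

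Among the pocket proteins and E2F factors downstream of these kinases, 8 of 13 rose and 1 fell in B11 at 10 against 0 ug/ml, with a median of 0.65 against -0.02 over all genes, of which 21.6% rose and 21.3% fell. E2F1, an activator of S-phase genes, averaged 22.9 FPKM at 10 ug/ml and 2.77 FPKM untreated (2.66, SE 0.08, limma adjusted p = 3.31e-12). E2F8, a repressing family member, rose by 2.12 (SE 0.15, adjusted p = 2.33e-08), and TFDP1, the dimer partner of E2F factors, by 0.77 (SE 0.06, adjusted p = 6.22e-08). The gene that fell, RBL2, encodes the pocket protein p130 of resting cells, and averaged 45.5 FPKM at 10 ug/ml and 70.2 FPKM untreated (-0.62, SE 0.09, adjusted p = 6.22e-05). The lower dose against 0 ug/ml gave 7 higher and 1 lower of 13, against 19.8% and 17.3% of all genes. THP1 at 10 against 0 ug/ml had 0 of 13 called by limma, where 1.02% of all genes were. An unadjusted p under 0.05 was found for 1 of the 13, and for 1835 of all 17555 genes.

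Genes for the turnover or binding of the p27 and p21 proteins were mixed: 8 of 16 rose and 2 fell in B11 at 10 against 0 ug/ml, with a median of 0.21 against -0.02 over all genes, of which 42.8% were called, 21.6% higher and 21.3% lower. CDC20, an activator of the APC/C ubiquitin ligase, averaged 544 FPKM at 10 ug/ml and 70.7 FPKM untreated (2.95, SE 0.12, limma adjusted p = 8.08e-11). CKS2, of the CKS family of CDK-binding proteins, rose by 1.47 (SE 0.07, adjusted p = 6.93e-10), PCNA, the clamp that p21 binds, by 1.62 (SE 0.09, adjusted p = 1.54e-09), and DTL, the adaptor that brings p21 to the CUL4 ligase, by 2.54 (SE 0.16, adjusted p = 9.63e-09). The lower dose against 0 ug/ml called 7 of 16, all higher, against 37.1% of all genes called, 19.8% higher. THP1 at 10 against 0 ug/ml had 0 of 16 called by limma, where 1.02% of all genes were. An unadjusted p under 0.05 was found for 0 of the 16, and for 1835 of all 17555 genes.

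**Figure D4:**
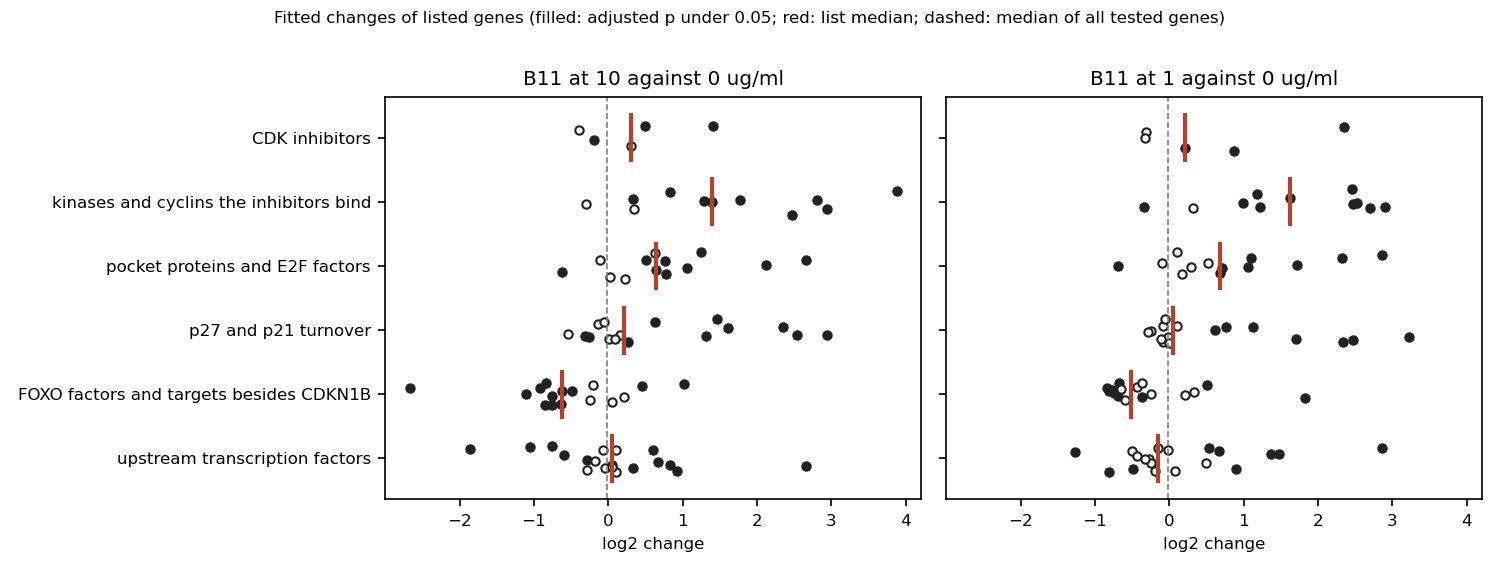
Fitted changes in log2(FPKM + 1) of the CDK inhibitor genes and of genes around them in B11 at 10 against 0 ug/ml (left) and at 1 against 0 ug/ml (right), with filled points at an adjusted p under 0.05, red bars at list medians and the dashed line at the median of all tested genes. Among the 6 lists drawn, which leave out CDKN3, kinases and cyclins lie furthest to the right, with medians of 1.39 and 1.63, and FOXO factors and targets lie left of 0, with medians of -0.62 and -0.51.

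FOXO factors and their targets besides CDKN1B mostly fell in B11: 10 of 16 were lower and 2 higher at 10 against 0 ug/ml, with a median of -0.62 against -0.02 over all genes, of which 21.3% fell and 21.6% rose. TXNIP, an inhibitor of thioredoxin, averaged 111 FPKM at 10 ug/ml and 713 FPKM untreated (-2.67, SE 0.09, limma adjusted p = 1.52e-11). FOXO3, a FOXO factor, fell by 0.76 (SE 0.13, adjusted p = 0.000198), and KLF2, a zinc-finger factor of resting leukocytes, rose by 1.01 (SE 0.17, adjusted p = 0.000155). With the lower dose, at 1 against 0 ug/ml, where 17.3% of all genes fell and 19.8% rose, 7 fell and 2 rose. Fewer of the list were called without plates B and C of the 1 ug/ml B11 group, a fit that also called fewer of all genes. Untreated B11 had 8 of the 16 higher and 1 lower than untreated THP1, against 23.5% and 23.6% of all genes. In THP1 at 10 against 0 ug/ml the list had a median of -0.28 against 0.00 over all genes, with 5 of 16 at an unadjusted p under 0.05 and 1 of 16 called against 1.02% of all genes, KLF2, which fell by 1.37 (SE 0.17, adjusted p = 0.000816). The response of B11 at 10 against 0 ug/ml was below that of THP1 for 4 of the 16 and above it for 2, where 29.8% of all genes differed.

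Of 20 transcription factors known to act on CDK inhibitor genes, 19 were tested, and 6 rose and 5 fell in B11 at 10 against 0 ug/ml, with a median of 0.05 against -0.02 over all genes, of which 42.8% were called, 21.6% higher and 21.3% lower. MYC, known to repress CDKN1A, rose by 0.67 (SE 0.06, limma adjusted p = 2.35e-07). KLF4, known to activate CDKN1A, fell by 1.86 (SE 0.16, adjusted p = 2.93e-07), and CEBPA, the myeloid factor, fell by 0.59 (SE 0.06, adjusted p = 6.75e-07). The lower dose against 0 ug/ml gave 6 higher and 3 lower of 19, against 19.8% and 17.3% of all genes. The median of the list was then -0.14, against -0.01 over all genes. In THP1 at 10 against 0 ug/ml 2 of 19 were called, against 1.02% of all genes, KLF4 with a fall of 0.84 (SE 0.16, adjusted p = 0.0244) and KLF6, another zinc-finger factor, with a fall of 0.96 (SE 0.19, adjusted p = 0.0313). Some genes stand on more than one list: E2F1, RBL2, FOXO1 and FOXO3.

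The INK4 genes CDKN2A and CDKN2B, on chromosome 9 at 21967753 to 21995301 and 22002903 to 22009363 (minus strand), were listed at 0 FPKM in all 18 libraries, as was their antisense neighbour CDKN2B-AS1. Of the 22 other protein-coding genes within 1 M bases, a set chosen after the values were seen, 18 were listed at 0 throughout. Of these, 15 were type I interferon genes, known to be low in unstimulated cells, and the others were MTAP, KLHL9 and AL359922.1. FOCAD and HACD4, at one flank, had medians of 28.3 and 4.82 FPKM. THP1 is known, as background, to have lost CDKN2A.

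The genes closest to CDKN1A in profile, by the root mean square difference of centred log2(FPKM + 1) over 18 libraries among 10292 protein-coding candidates, were SCD at 0.237, DBN1 at 0.321 and PLP2 at 0.335. SCD, a fatty acid desaturase, averaged 27.4, 116 and 94.8 FPKM in B11 at 0, 1 and 10 ug/ml, and 87.8, 77.2 and 51.6 FPKM in THP1. Its order of groups matched that of CDKN1A in having untreated B11 lowest and B11 at 1 ug/ml highest. Closest to CDKN2D were PSMC5, a proteasome ATPase, at 0.183, ITPRIP at 0.187 and H3F3B, a histone H3.3 gene with near-identical copies among which reads may have been split, at 0.198. PSMC5 averaged 112, 184 and 154 FPKM in B11 at 0, 1 and 10 ug/ml, and 108, 102 and 109 FPKM in THP1. The other 3 members spanned less than 1 on the log2 scale between group means and were not matched.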

How the data were processed

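Total RNA of 18 plates was sequenced. Per the submitters' processing notes the authors aligned reads with HISAT2 to GRCh38 and made the values with Cuffnorm. Not given in the sources used here: versions, annotation, strand and scaling. A unit for the deposited table is not named in it, and FPKM was inferred from the tool and the values, which summed to 1.01e+06 to 1.20e+06 per library. Symbols and positions came from GENCODE 29, which named 57047 of 60658 IDs.

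Values were taken as log2(FPKM + 1), which understates changes of low genes. The 17555 genes that reached 1 FPKM in 3 or more libraries were fitted as 6 group means in 1 model with limma 3.58.1 (R 4.3.3; intensity trend, 12 residual degrees of freedom, two-sided). P-values were adjusted by Benjamini-Hochberg over all genes within each of 12 comparisons and called at 0.05. No count model was run, since the values are FPKM. Depth was estimated from steps in low values of 913 single-transcript genes, and covers counting error only.

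Members and gene lists were chosen with earlier results of these data known. A gene and a list built around it are not reported here. By rule, all members were tested in all comparisons and each call on them was given by value. Up to 4 genes per list with the smallest p were named, and CDKN2A and CDKN2B were given by level. CCND3, given by level as the most abundant D-type cyclin listed, was added outside that rule. Profiles were matched to members whose group means spanned at least 1 on the log2 scale. Candidates for a match had a highest group mean of at least 5 FPKM. A fit without plates B and C of the 1 ug/ml B11 group was added after seeing the data. It leaves that group with 1 library, which is assumed to vary like the other groups. Replicate letters were not treated as pairs. The labels name no batch. Figures used matplotlib 3.10.9 in Python 3.11.15.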

Additional observations from a re-analysis of the deposited data

Results flagged for a closer look

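The response to doxycycline differed between B11 and THP1, by the test of that difference in the limma model, for the values listed next. At 10 against 0 ug/ml CDKN1A differed by 2.29 on the log2 scale (limma adjusted p = 6.63e-08), with all 3 treated libraries higher in B11 and all 3 lower in THP1. CDKN1C differed by 0.75 (adjusted p = 0.0356) and NRAS, the targeted gene, by 0.35 (adjusted p = 0.0159). At 1 against 0 ug/ml CDKN1A differed by 2.52 (adjusted p = 2.89e-08), CDKN2C by 0.25 (adjusted p = 0.0238) and CDKN2D by 0.73 (adjusted p = 0.0484). Under other settings the call of CDKN1C was lost in 10 of 29, that of CDKN2C in 5 of 30 and that of CDKN2D in 17 of 30. Both calls of CDKN1A were lost in 0 of 30, and NRAS was not put through these settings. Groups of 3 libraries were too small for a test of single outlying samples. Fits with each library left out in turn are given below.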

How the results depend on the processing

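Of 60 results (5 genes in 12 comparisons), 48 kept their direction if called and their side of the threshold under all 30 other settings (29 for CDKN1C, which a filter at a mean of 5 FPKM removed). None of the 1788 values reversed a call, 66 lost one and 6 gained one. CDKN1A kept its calls under all settings except at 10 against 1 ug/ml in THP1, and CDKN2C kept its differences between the lines.

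The number of the 5 genes called moved by more than 1.5 times in these cases, and the cause was not tested. In B11 at 10 against 0 ug/ml it was 1 instead of 3 with only the groups compared in the fit. In THP1 at 10 against 1 ug/ml it was 0 instead of 1 with the replicate letter as a block, with only the groups compared, and without plates B and C of the 1 ug/ml B11 group. For the response of B11 minus that of THP1 at 10 against 0 ug/ml it was 1 instead of 2 with no filter, with the filter at a mean of 5 FPKM, with only the groups compared, and without plates B and C of the 1 ug/ml B11 group. At 1 against 0 ug/ml it was 1 instead of 3 with no intensity trend. At 10 against 1 ug/ml it was 1 instead of 0 among protein-coding genes. With each library left out in turn, it ranged from 2 to 3 in B11 at 10 against 0 ug/ml and at 10 against 1 ug/ml, stayed at 3 at 1 against 0 ug/ml, and in THP1 ran from 0 to 1 at 10 against 1 ug/ml, stayed at 1 at 10 against 0 ug/ml and at 0 at 1 against 0 ug/ml. Between the lines it ran from 2 to 3 untreated and from 3 to 4 at 1 ug/ml, and stayed at 3 at 10 ug/ml. For the differences of response it ran from 1 to 2 at 10 against 0 ug/ml, from 1 to 3 at 1 against 0 ug/ml and from 0 to 1 at 10 against 1 ug/ml. The number of all genes called varied most in THP1, from 54 to 220 at 10 against 0 ug/ml (179 as reported), from 0 to 23 at 1 against 0 ug/ml (2) and from 11 to 113 at 10 against 1 ug/ml (52). In B11 it was 4053 at 1 against 0 ug/ml (6516) and 601 at 10 against 1 ug/ml (2249) without plates B and C of the 1 ug/ml group, and at 10 against 1 ug/ml 1478 without plate C of that group and 1475 without plate C of the 10 ug/ml group. Without plates B and C it was 2687 for B11 against THP1 at 1 ug/ml (5231) and 230 for the difference of response at 10 against 1 ug/ml (814), which was 495 without plate C alone.

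The replicate letters shared by the groups do not pair the plates: over 45 pairs of same-letter libraries, deviations correlated at -0.0705 to 0.0923, and 0 pairs were above 0.1. Correlations with the other groups were also averaged by letter. For 7 of 18 libraries the letter with the highest mean, out of A, B and C, was their own. With the letter as a block, the calls of CDKN1A in THP1 at 10 against 1 ug/ml (adjusted p = 0.0527), CDKN1C between the lines at 1 ug/ml (0.0511) and the CDKN2D difference of response at 1 against 0 ug/ml (0.0504) were lost. TPM scaling moved the median of all genes by -0.10 in B11 against THP1 at 0 ug/ml. Depth limited CDKN1C most, at an estimated 49.2 fragments in its lowest library.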
